A study of Mus musculus with 4 samples.

Results

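The 10 genes described here carry out iron uptake, storage and export: Ftl1, Fth1, Tfrc, Tfr2, Steap3, Slc11a2, Slc25a37, Slc11a1, Slc40a1 and Ireb2. They were chosen by name, and all 10 had values in every library, out of 17823 genes with values and 23136 genes listed. Blood RNA-seq libraries came from C57BL/6 mice, adult by their labels and 12 months old, that were treated for 30 days. Mice of the Nar group (2 libraries, Nar 1 and Nar 3) received naringenin, a flavonoid, at 20 mg/kg through the tail vein, and control mice (2 libraries, Ctrl 1 and Ctrl 3) received the same volume of PBS. The comparison asked how Nar treatment changed blood gene expression in aging mice. No source used here says how many mice stand behind a library, so p-values measure only the spread between these libraries.

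Iron enters most cells bound to transferrin, through the transferrin receptor, and is reduced and carried out of the endosome by a metal transporter. Iron that is not needed at once is held in a shell of ferritin, and the only known iron exporter, ferroportin, returns iron to plasma. Developing red cells take in iron mainly for heme, which is made in mitochondria, while macrophages recover iron from old red cells. Iron regulatory proteins adjust this machinery by binding a short RNA hairpin, the iron-responsive element (IRE), in messenger RNAs that need less or more iron: at the start of a message the bound protein blocks translation, and near its end it protects the message from decay.

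The hairpin is shown first because it is what several of these genes share beyond their names. A script searched the untranslated regions of 1 principal protein-coding transcript per gene in GENCODE M21 (build GRCm38), on the transcript strand, for the 6-letter loop CAGTGN closed by 5 base pairs, G with T included, with a C directly before the stem. The 5′ untranslated regions of Ftl1, Fth1 and Slc40a1 held 1 match each, and the 3′ untranslated region of Tfrc held 4. Capitals mark the loop. Each run reads 5′ to 3′ in DNA letters and holds 29 bases, and the strand follows the position:
Ftl1, chr7:45459779-45459807, minus strand, 5′ untranslated region: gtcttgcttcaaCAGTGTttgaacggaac
Fth1, chr19:9982732-9982760, plus strand, 5′ untranslated region: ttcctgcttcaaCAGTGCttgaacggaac
Slc40a1, chr1:45925465-45925493, minus strand, 5′ untranslated region: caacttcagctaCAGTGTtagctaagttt
Tfrc, site 1, chr16:32631219-32631247, plus strand, 3′ untranslated region: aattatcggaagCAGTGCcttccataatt
Tfrc, site 2, chr16:32631598-32631626, plus strand, 3′ untranslated region: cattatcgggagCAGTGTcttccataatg
Tfrc, site 3, chr16:32631663-32631691, plus strand, 3′ untranslated region: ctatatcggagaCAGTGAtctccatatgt
Tfrc, site 4, chr16:32631710-32631738, plus strand, 3′ untranslated region: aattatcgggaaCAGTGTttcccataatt

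Both ferritin genes had the same upper stem around the loop, ttcaa and ttgaa, while Slc40a1 had agcta and tagct. Over all genes searched, 21 of 20081 5′ untranslated regions (0.105%) and 111 of 20574 3′ untranslated regions (0.54%) held a match. The other 6 genes, Tfr2, Steap3, Slc11a2, Slc25a37, Slc11a1 and Ireb2, held none in the transcript searched, which says only that these letters with this pairing were absent there. A match is a description of sequence, and the libraries measure RNA level, not translation or protein binding.

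Expression was given as FPKM (a fragment count adjusted for transcript length and for the mapped total of the library), deposited with 2 decimals. Haemoglobin genes took 92.6% to 96.4% of the summed FPKM in the 4 libraries, so the other genes share a small remainder, and the median log2 fold change of the 5339 genes tested was -1.07 (Nar minus Ctrl, on log2(FPKM + 0.1)). Changes are therefore also given relative to that median, and on 2 other scales: with haemoglobin genes removed, where the median was -0.56, and after median-of-ratios scaling, by which the typical gene keeps 1 level and which left a median of 0.00 (-0.0016). Genes with a mean of at least 0.5 FPKM over all 4 libraries were tested with limma, and adjusted p-values are Benjamini-Hochberg values over all genes tested. The files do not show depth, and counting errors are not given.

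Of the iron genes, limma called 2 lower with Nar on the deposited scale, and both encode metal carriers. Slc40a1 (ferroportin) was at 0.191 and Slc11a1 (the phagosomal metal transporter) at 0.232 of its control level, on the scale of FPKM + 0.1. With a pseudocount of 1 their log2 fold changes, -2.39 and -2.11, became -1.38 and -1.31. The ferritin genes Ftl1 and Fth1 remained among the most abundant messages of the blood, and Slc25a37, the mitochondrial iron importer of red cell precursors, had the highest fold change of the 10 genes. Of the 6 genes that could be tested, 2 passed at an adjusted p-value under 0.05 and were lower, 0 were higher, and 4 did not pass. Over all genes tested, 39.6% passed as lower and 0.187% as higher, so the share of iron genes called was near the background. Neither gene passed after median-of-ratios scaling or with no filter, and with 1 library left out the count was 0, or 1 without Nar 3.

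For 7 of the 10 genes, each Nar library had a lower FPKM than each control library (Ftl1, Fth1, Steap3, Slc11a2, Slc11a1, Slc40a1 and Ireb2), and the groups overlapped for Tfrc, Tfr2 and Slc25a37. Over the 16382 genes above 0 in at least 1 library, 52.7% lay lower in this way and 2.78% higher. The median log2 fold change of the 10 genes was -0.60, beside -0.57 over those 16382 genes. For the 6 tested iron genes it was -0.43, beside -1.07 over all 5339 tested genes. The filter placed Tfrc (mean 0.515 FPKM) just inside and Ireb2 (mean 0.465 FPKM) just outside, and Slc40a1 and Tfrc passed it only through their control libraries (Nar means 0.465 and 0.485 FPKM).

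**Figure D1:**
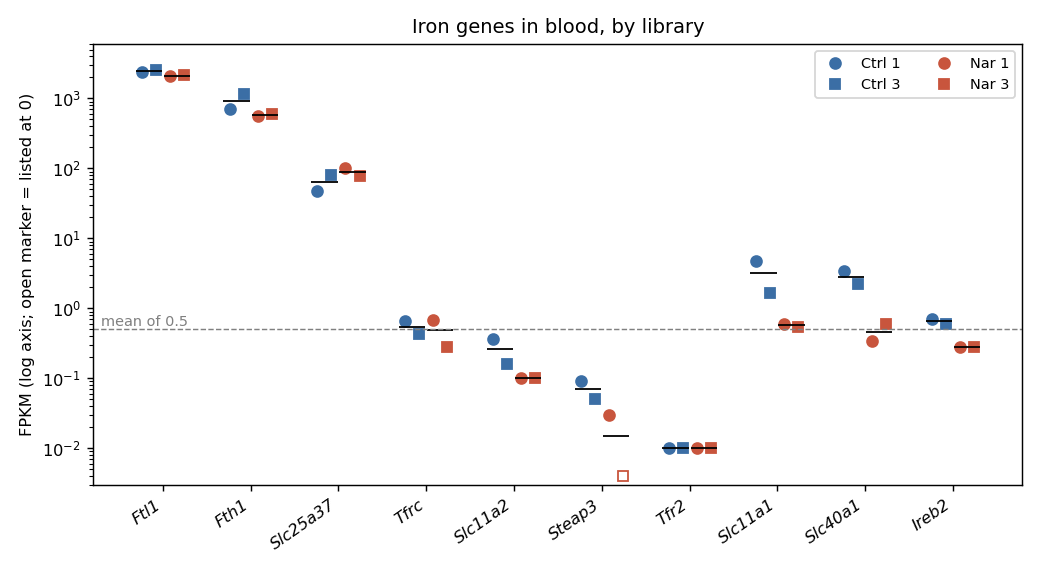
FPKM of the 10 iron genes on a log axis, with 1 point per library (circles, replicate 1; squares, replicate 3; blue, Ctrl; red, Nar), black bars at group means and an open marker for the value listed at 0. The levels span from 2583 FPKM for Ftl1 in Ctrl 3 to 0.01 FPKM for Tfr2, and the Nar points of Slc40a1 and Slc11a1 sit at 0.34 to 0.60 FPKM, below all their control points.

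Ferritin, the storage protein, is a shell of light and heavy chains, and the heavy chain oxidizes iron as it enters. Ftl1, the light chain gene (NCBI Gene 14325, chr7:45457944-45459884, minus strand), had 2419 and 2583 FPKM in Ctrl 1 and 3, against 2058 and 2193 in Nar 1 and 3. The control libraries were the higher pair, by a narrow margin: the means were 2501 ± 116 and 2125 ± 95.3 FPKM (SD, n = 2). The log2 fold change was -0.23 (standard error 0.288, limma adjusted p = 0.484), or 0.84 above the median of tested genes, and 90.4% of tested genes had a lower one.

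Fth1, the heavy chain gene (NCBI Gene 14319, chr19:9980598-9985098, plus strand), had 696 and 1142 FPKM in Ctrl 1 and 3, against 558 and 593 in Nar 1 and 3. The Nar libraries were nearly alike, while Ctrl 3 stood well above Ctrl 1. Its log2 fold change was -0.63 (standard error 0.402, limma adjusted p = 0.196). It was -0.28 without Ctrl 3 and -0.99 without Ctrl 1. Neither ferritin gene passed the test on any of the 3 scales, and the direction depended on the scale: after median-of-ratios scaling Ftl1 was at 0.94 (adjusted p = 0.194) and Fth1 at 0.54 (adjusted p = 0.667), both higher in both Nar libraries.

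Among genes other than haemoglobin, Ftl1 ranked 4, 4, 3 and 2 by FPKM in Ctrl 1, Ctrl 3, Nar 1 and Nar 3, and Fth1 ranked 13, 14, 22 and 16. Together both chains took 4.17% and 3.40% of the FPKM outside haemoglobin in Ctrl 1 and Ctrl 3, and 3.97% and 4.89% in Nar 1 and Nar 3. The groups overlapped (3.78% ± 0.538 against 4.43% ± 0.656, SD, n = 2; exact two-sided permutation test p = 0.667). Both genes have processed pseudogenes that closely resemble them, between which alignment can split reads, so their levels are uncertain to that extent.

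The chains were also compared with each other, since a ratio of 2 genes within a library hardly moves with the scale of the library. The Fth1:Ftl1 ratio was 0.288 and 0.442 in Ctrl 1 and 3, against 0.271 and 0.270 in Nar 1 and 3. Nar libraries lay lower, with a log2 difference of -0.40, but only Ctrl 3 stood apart: without it the difference was -0.09, and without Ctrl 1 -0.71. The summed platelet markers were also highest in Ctrl 3, at 766 and 2389 FPKM in Ctrl 1 and 3 and 670 and 500 FPKM in Nar 1 and 3, and their part in the Fth1 values was not tested. With 2 libraries against 2, an exact permutation test cannot go below a two-sided p = 0.333, and this ratio gave that p; adjusted over the 7 ratios compared it was 0.583.

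Slc25a37 encodes mitoferrin-1 (NCBI Gene 67712, chr14:69241848-69285112, minus strand), which brings iron into mitochondria for heme synthesis in developing red cells. It had 46.9 and 80.9 FPKM in Ctrl 1 and 3, against 101 and 77.8 in Nar 1 and 3. The groups overlapped, with Nar 3 just below Ctrl 3. The log2 fold change was 0.53 (standard error 0.522, limma adjusted p = 0.388), which lay 1.60 above the median of tested genes, and 98.4% of tested genes had a lower one. The value was 0.14 without Ctrl 1, 0.34 without Nar 1 and 0.92 without Ctrl 3.

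On both other scales the Slc25a37 groups no longer overlapped and the Nar libraries were higher. On the scale without haemoglobin genes, the log2 fold change was 1.09 (limma adjusted p = 0.114), and after median-of-ratios scaling it was 1.70 (limma adjusted p = 0.101). Neither passed the threshold over all genes. Without the filter and with the same scaling, the adjusted p was 0.299.

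A second carrier, mitoferrin-2 (Slc25a28), is known from other cell types and was lower in both Nar libraries. It had 1.72 and 1.28 FPKM in Ctrl 1 and 3, against 0.36 and 0.55 in Nar 1 and 3, a log2 fold change of -1.54 (limma adjusted p = 0.0202). It entered the test only through its controls (Nar mean 0.455 FPKM) and did not pass with no filter, with haemoglobin genes removed, after median-of-ratios scaling or with any 1 library left out. The Slc25a37:Slc25a28 ratio was 27.3 and 63.2 in Ctrl 1 and 3, against 282 and 141 in Nar 1 and 3. It was higher in both Nar libraries, by 2.06 on the log2 scale of FPKM + 0.1 against a spread between replicates of 0.738 (exact permutation p = 0.333, adjusted over the 7 ratios 0.583). It ran from 1.47 to 2.65 when 1 library was left out, and was 1.30 with a pseudocount of 1.

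**Figure D2:**
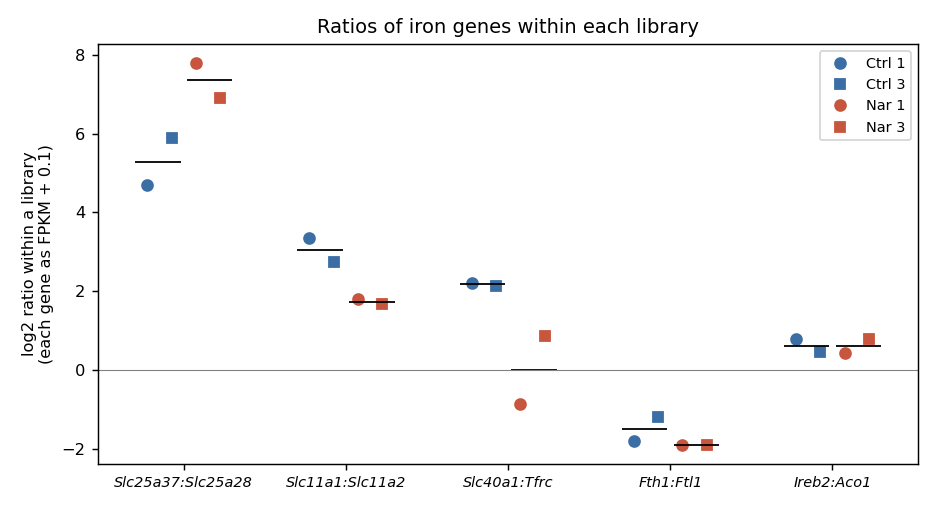
Log2 ratios of 5 gene pairs within each library, each gene taken as FPKM + 0.1 (circles, replicate 1; squares, replicate 3; blue, Ctrl; red, Nar; black bars, group means). The Slc25a37:Slc25a28 ratio is higher, and the Slc11a1:Slc11a2, Slc40a1:Tfrc and Fth1:Ftl1 ratios are lower, in both Nar libraries, while Ireb2:Aco1 overlaps.

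The 4 genes of the transferrin route were low in these libraries. Tfrc, the transferrin receptor (NCBI Gene 22042, chr16:32608920-32632794, plus strand), had 0.66 and 0.43 FPKM in Ctrl 1 and 3, against 0.69 and 0.28 in Nar 1 and 3. The groups overlapped fully, with the highest and the lowest value both in Nar. The log2 fold change was -0.21 (standard error 0.484, limma adjusted p = 0.708), and it changed sign when Ctrl 1 (0.05) or Nar 3 (0.32) was left out and on both other scales (0.23 and 0.74).

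Slc11a2 (DMT1, NCBI Gene 18174, chr15:100387898-100425072, minus strand), which carries iron out of the endosome, had 0.37 FPKM in Ctrl 1, 0.16 in Ctrl 3 and 0.10 in both Nar libraries. Steap3, the reductase of the same endosome (NCBI Gene 68428, chr1:120190757-120272705, minus strand), had 0.09 and 0.05 FPKM in Ctrl 1 and 3, against 0.03 and a listed 0 in Nar 1 and 3. Both were lower in the Nar libraries as deposited, and after median-of-ratios scaling the groups overlapped for both. Tfr2, a second transferrin receptor known from liver and red cell precursors (NCBI Gene 50765, chr5:137569840-137587481, plus strand), was listed at 0.01 FPKM, the rounding step, in every library, so no change could be read from it. None of these 3 genes reached the mean needed for the test. With no filter they were tested beside the rest, where none of 16382 genes reached the limma threshold (0.0%; 0 genes, against 4978 at an unadjusted p under 0.05), and their adjusted p-values were 0.248 for Slc11a2, 0.191 for Steap3 and 1 for Tfr2.

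The order of levels in these libraries was Ftl1, Fth1 and Slc25a37, each above the next in all 4 libraries. Below them the order changed between libraries: Slc11a1 and Slc40a1 exchanged places within the controls, and Tfrc lay above both of them in Nar 1. Slc11a2, Steap3 and Tfr2 came last in that order in Ctrl 1, Ctrl 3 and Nar 1, while Nar 3 listed Steap3 at 0, under Tfr2.

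Slc40a1 encodes ferroportin (NCBI Gene 53945, chr1:45908068-45926523, minus strand), the iron exporter by which macrophages return recycled iron to plasma. It had 3.43 and 2.25 FPKM in Ctrl 1 and 3, against 0.34 and 0.59 in Nar 1 and 3. Both Nar libraries were far below both controls, with means of 0.465 ± 0.177 and 2.84 ± 0.834 FPKM (SD, n = 2). The log2 fold change was -2.39 (standard error 0.393, limma adjusted p = 0.00654), 1.31 below the median of tested genes (a difference of -1.31), and 4.01% of tested genes had a lower one. Slc40a1 entered the test only through its controls, since its Nar mean lay under 0.5 FPKM.

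The fall of Slc40a1 kept its direction and its separation of groups on all 3 scales. It was -1.89 with haemoglobin genes removed (limma adjusted p = 0.0319, on a scale where 5.01% of genes passed as lower) and -1.32 after median-of-ratios scaling (limma adjusted p = 0.165, where 0.599% passed as lower and 0.187% as higher). Leaving out 1 library ended the call for Ctrl 1 (-2.09, adjusted p = 0.0826), Ctrl 3 (-2.68, adjusted p = 0.0871) and Nar 1 (-2.06, adjusted p = 0.0579) but not for Nar 3 (-2.71, adjusted p = 0.0280). With no filter its adjusted p was 0.113.

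Slc11a1 encodes NRAMP1 (NCBI Gene 18173, chr1:74375195-74386062, plus strand), which pumps metal ions out of the phagosome of macrophages and neutrophils. It had 4.73 and 1.63 FPKM in Ctrl 1 and 3, against 0.60 and 0.54 in Nar 1 and 3. The Nar libraries were close together and below both controls; Ctrl 1 was well above Ctrl 3. The log2 fold change was -2.11 (standard error 0.486, limma adjusted p = 0.0186), or -1.04 relative to the median of tested genes. It was -2.85 without Ctrl 3 and -1.37 without Ctrl 1, and no longer passed without Ctrl 1 (adjusted p = 0.0826), Ctrl 3 (0.0871), Nar 1 (0.0734) or Nar 3 (0.111). On the other scales the values were -1.61 with haemoglobin genes removed (limma adjusted p = 0.104) and -1.04 after median-of-ratios scaling (limma adjusted p = 0.392).

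**Figure D3:**
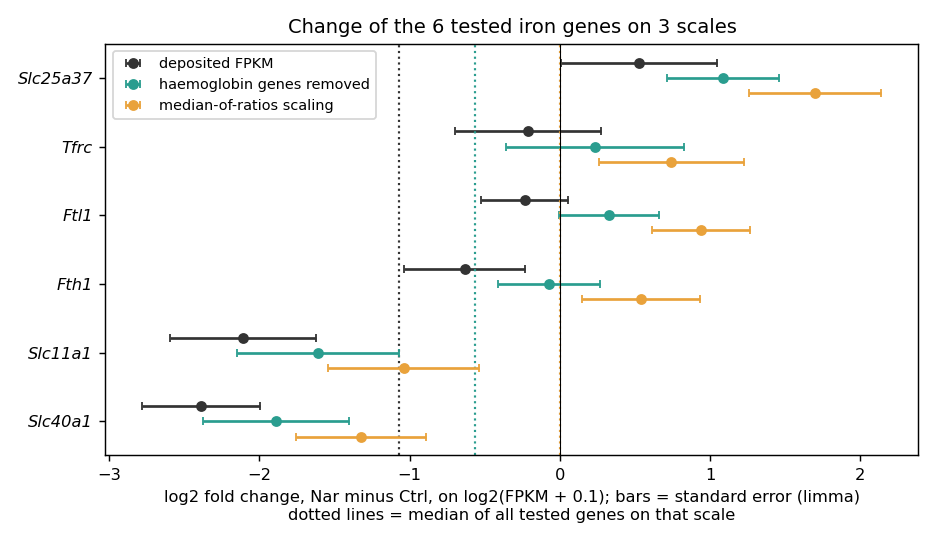
Log2 fold changes (Nar minus Ctrl, log2(FPKM + 0.1)) of the 6 tested iron genes with limma standard errors as bars, on the deposited scale, with haemoglobin genes removed and after median-of-ratios scaling. Dotted lines mark the median of all tested genes on each scale (-1.07, -0.56 and 0.00, the last under the line at 0). On every scale Slc25a37, Tfrc, Ftl1 and Fth1 sit to the right of that median and Slc11a1 and Slc40a1 to its left.

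Slc11a1 and Slc11a2 are related transporters with different places in the body, and their ratio did not overlap between the groups. The Slc11a1:Slc11a2 ratio was 12.8 and 10.2 in Ctrl 1 and 3, against 6.00 and 5.40 in Nar 1 and 3. The log2 difference was -1.31 on FPKM + 0.1, a pseudocount as large as the Slc11a2 level in the Nar libraries, and -1.06 with a pseudocount of 0.01 (exact permutation p = 0.333, adjusted 0.583), and it ran from -1.62 to -0.99 when 1 library was left out. For the pair Slc40a1:Tfrc, the log2 fold changes of the single genes were -2.39 and -0.21, and Tfrc overlapped between the groups. The Slc40a1:Tfrc ratio was 5.20 and 5.23 in Ctrl 1 and 3, against 0.493 and 2.11 in Nar 1 and 3. The controls were nearly identical and both Nar libraries lower but far apart from each other, with a difference of the means of -2.17 (exact permutation p = 0.333, adjusted 0.583). It was -1.32 without Nar 1, -3.03 without Nar 3 and -1.31 with a pseudocount of 1. The ratios Tfr2:Tfrc and Tfrc:Ftl1 overlapped between the groups (exact permutation p = 1 for each).

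Markers of neutrophils and of monocytes were lower in the same libraries. All 10 neutrophil markers were lower in both Nar libraries, and their summed level was 1356 to 1637 FPKM in controls and 99.7 to 158 FPKM with Nar. Of 10 monocyte markers, 8 lay lower in both Nar libraries and 2 overlapped, with a sum of 89.3 to 104 FPKM in controls and 10.5 to 27.9 FPKM with Nar; in neither list was a marker at 0 in all libraries. Over all genes above 0, 52.7% lay lower and 2.78% higher in both Nar libraries, which is the background for these counts and for the erythroid ones. Limma called 10 of 10 neutrophil and 5 of 9 tested monocyte markers lower (39.6% of all genes tested). With median-of-ratios scaling it called 4 of 10 and 2 of 9 lower (0.599%). Ly6c2 and F13a1 were the highest monocyte markers in both controls. F13a1 had 18.6 and 46.6 FPKM in Ctrl 1 and 3, against 18.2 and 5.98 in Nar 1 and 3. The part of the neutrophil and monocyte markers in the falls of Slc40a1 and Slc11a1 was not tested, and in whole blood fewer cells of a type and less RNA per cell cannot be told apart. The summed erythroid markers other than haemoglobin (18 of 19 with values, 5 higher and 2 lower in both Nar libraries) were at 9266 to 11576 FPKM in controls and 10555 to 11493 FPKM with Nar, and none was at 0 throughout. Slc25a37 and the erythroid sum both overlapped between the groups on the deposited scale. Most of that sum was Alas2, at 6055 to 6991 FPKM. The 15 erythroid markers tested had a median log2 fold change of 0.37 as deposited, 0.93 with haemoglobin genes removed (limma called 2 of them higher) and 1.54 after median-of-ratios scaling (0 called, 14 at an unadjusted p under 0.05), and their part in the Slc25a37 values was not tested.

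**Figure D4:**
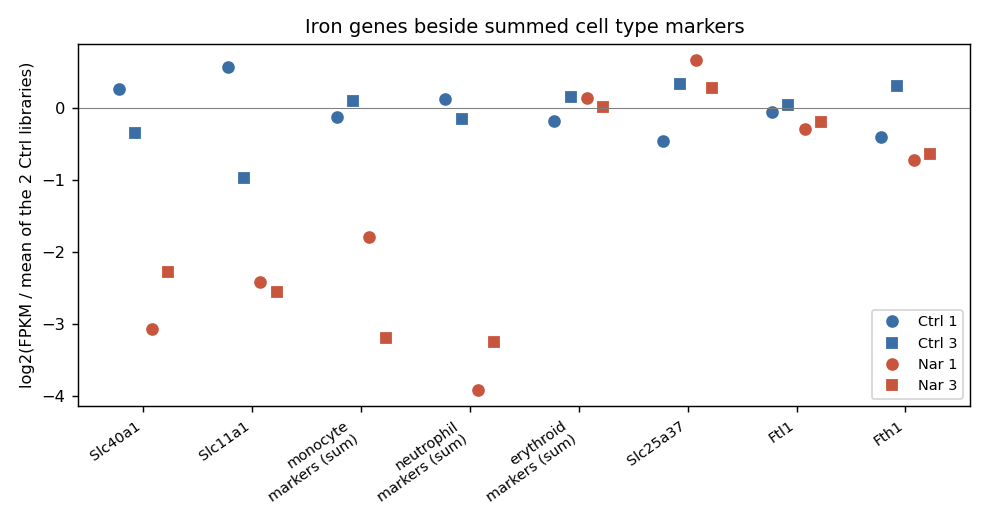
Log2 of the level over the mean of the 2 Ctrl libraries for Slc40a1, Slc11a1, Slc25a37, Ftl1 and Fth1 and for the summed monocyte, neutrophil and erythroid markers, 1 point per library (circles, replicate 1; squares, replicate 3; blue, Ctrl; red, Nar). In the Nar libraries Slc40a1 is at -3.06 and -2.27, Slc11a1 at -2.41 and -2.56, the neutrophil sum at -3.91 and -3.25, the monocyte sum at -1.79 and -3.20 and the erythroid sum at 0.14 and 0.02.

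Ireb2 encodes iron regulatory protein 2 (NCBI Gene 64602, chr9:54863789-54912530, plus strand), which binds the hairpins shown above when iron is low. It had 0.70 FPKM in Ctrl 1, 0.60 in Ctrl 3 and 0.28 in both Nar libraries. The groups were well separated and the replicates close, but the log2 fold change of -0.98 was 0.09 above the median of tested genes. With no filter its limma adjusted p was 0.121, and after median-of-ratios scaling the groups overlapped, at -0.03. Aco1, the gene of iron regulatory protein 1, was lower too, at 0.36 and 0.41 FPKM in controls and 0.18 and 0.12 FPKM with Nar, and the Ireb2:Aco1 ratio overlapped between the groups (1.94, 1.46, 1.56 and 2.33 in Ctrl 1, Ctrl 3, Nar 1 and Nar 3; exact permutation p = 0.667).

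Scale decided how many of the 10 genes separated the groups. With haemoglobin genes removed, 4 were lower in both Nar libraries (Steap3, Slc11a1, Slc40a1 and Ireb2) and 2 higher (Slc25a37 and Tfr2), beside 34.5% and 8.2% of all genes. After median-of-ratios scaling, 2 were lower (Slc11a1 and Slc40a1) and 4 higher (Ftl1, Fth1, Slc25a37 and Tfr2), beside 15.8% and 18.9% of all genes. The separation of Tfr2 came from dividing 1 listed value, 0.01 FPKM, by the scale of each library. Only Slc11a1 and Slc40a1 were lower in both Nar libraries on the deposited scale and both of these. After median-of-ratios scaling Slc11a1 separated narrowly, at 1.01 in Ctrl 3 against 0.81 and 0.90 in Nar 1 and 3. The share of all genes lower on all 3 scales was not counted.

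A wider list of 41 other iron genes gave 39 with values and 16 that could be tested. In limma 8 of the 16 passed as lower and 0 as higher, beside 39.6% and 0.187% of all tested genes, and 11 had an unadjusted p under 0.05, as had 3036 of all 5339. After median-of-ratios scaling 2 of the 16 passed as lower, Lcn2 and Ltf, beside 0.599% of all tested genes. Of the 8 genes, Ltf, Slc25a28, Hmox1, Steap4 and Trf had Nar means under 0.5 FPKM and entered the test only through their controls, and with no filter 0 of 37 passed (12 at an unadjusted p under 0.05). The median log2 fold change of the 16 was -1.38, against -1.07 for all tested genes.

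The steepest falls in that list were those of iron-binding proteins of neutrophil granules. Ltf (lactoferrin) had 9.56 and 10.9 FPKM in controls and 0.60 and 0.37 FPKM with Nar (log2 fold change -4.17, limma adjusted p = 0.00238). Lcn2 (lipocalin-2, which captures bacterial iron carriers) had 99.4 and 75.2 FPKM against 5.49 and 7.03 FPKM (log2 fold change -3.78, limma adjusted p = 0.00427). Hp, the haptoglobin gene, whose product binds free haemoglobin, had 27.9 and 26.2 FPKM against 2.95 and 4.26 FPKM (log2 fold change -2.90, limma adjusted p = 0.00671).

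Genes that act on ferritin or on the iron regulatory proteins are described next. Fbxl5, the iron sensor that marks iron regulatory protein 2 for breakdown, fell from 5.60 and 6.26 FPKM to 0.58 and 0.93 FPKM (log2 fold change -2.85, limma adjusted p = 0.00439), and did not pass after median-of-ratios scaling. Ncoa4, the receptor that delivers ferritin to the lysosome, was at 117 and 86.8 FPKM in controls and 137 and 108 FPKM with Nar, overlapping (log2 fold change 0.27, limma adjusted p = 0.632). Pcbp1 and Pcbp2, chaperones that hand iron to ferritin, had log2 fold changes of -1.03 and -0.53 and did not pass (limma adjusted p = 0.0632 and 0.354).

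Of the other genes named for their abundance, Slc48a1, Snx3 and Hmox2 did not pass. Slc48a1, the heme carrier of the lysosome, had 87.1 and 137 FPKM in controls and 134 and 122 FPKM with Nar (limma adjusted p = 0.695). Snx3, needed to recycle the transferrin receptor, had 24.3 and 34.3 FPKM against 30.4 and 26.0 FPKM (limma adjusted p = 0.953), and Hmox2, the constitutive heme oxygenase, had a log2 fold change of 0.10 (limma adjusted p = 0.863). The remaining genes that passed were Slc25a28, given above, Hmox1, the inducible heme oxygenase (-1.64, limma adjusted p = 0.0214), Steap4, a metal reductase (-2.21, limma adjusted p = 0.0286), and Trf, transferrin itself (-1.48, limma adjusted p = 0.0320). Hmox1, Steap4 and Trf did not pass with haemoglobin genes removed or after median-of-ratios scaling. Hamp, the liver hormone hepcidin that degrades ferroportin, and Erfe, an erythroid hormone that lowers hepcidin, were listed at 0 in all 4 libraries.

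For each tested gene, the genes nearest in pattern over the 4 libraries were found by the Euclidean distance of log2(FPKM + 0.1) values centred on their mean; with 4 libraries this describes likeness only. Nearest to Slc25a37 were Hscb (distance 0.10), Vopp1 (0.11) and Yipf4 (0.17). Hscb, a cochaperone of iron-sulfur cluster assembly, had 11.2, 20.6, 23.9 and 18.1 FPKM in Ctrl 1, Ctrl 3, Nar 1 and Nar 3. Among the nearest to Slc40a1 were Pstpip2 (0.08) and Rab31 (0.16), and among the nearest to Slc11a1 were Cd244a (0.18) and Gpr141 (0.24). Fth1 was closest to Cnih1 (0.06), Dynlt1f (0.06) and Gclc (0.07), Ftl1 to Gemin7 (0.14), Hbb-b1 (0.15) and Sbds (0.15), and Tfrc to Ap3m1 (0.14), Top1 (0.21) and Rpl22l1 (0.22).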

How the data were processed

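Blood messenger RNA, purified with oligo(dT) beads, was sequenced from 2 Nar and 2 control libraries. The authors deposited FPKM values per gene; their methods name bowtie-2 and reference gene sequences, and the submitters' processing notes name TopHat2, Cufflinks and GRCm38, with no versions, and which of them made the values is not given in the sources used here. Groups and the replicate numbers 1 and 3 came from the sample titles; 0 columns were left unmapped. The smallest value above 0 was 0.01 FPKM in every library, and whether low values moved in steps of single reads was not tested.

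The 5339 genes whose mean reached 0.5 FPKM were compared on log2(FPKM + 0.1) with limma 3.58.1 in R 4.3.3 (lmFit, eBayes with a trend), Benjamini-Hochberg adjusted over all of them; the steps were tested on simulated data. This pseudocount understates changes of low genes. Ratios of 7 gene pairs were compared by exact permutation (scipy 1.17.1). Alternatives were pseudocounts of 1 and 0.01, no filter, a mean of at least 5 FPKM, TPM, haemoglobin removed, median-of-ratios scaling, no trend, a replicate block, and each library left out.

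The members and lists were chosen with earlier results of these data known. All 10 members are named; other iron genes and genes of iron-sulfur cluster assembly were named by highest mean FPKM (10 and 3) or if they passed as higher, and the others named were singled out after their values were seen. The 3 tested genes nearest in pattern to each tested member were named too, except 2 genes that are not reported here. Marker lists of B cells, T cells and platelets were also scored: 4 of 8, 3 of 8 and 5 of 10 genes with values lay lower in both Nar libraries and 0 lay higher, beside 52.7% and 2.78% of all genes above 0. The median log2 fold changes of those tested were -0.46, -0.61 and -1.00 as deposited. After median-of-ratios scaling they were 0.63, 0.42 and 0.18. Of a hepatocyte list 4 of 8 genes had values, and 1 was tested, Ttr, with 0.22 and 0.25 FPKM in controls and 0.50 and 7.68 FPKM in Nar 1 and Nar 3 (log2 fold change 2.69, limma adjusted p = 0.0480), which was 0.84 without Nar 3 (limma adjusted p = 0.468). Plots were drawn with matplotlib 3.10.9. Sequences and gene positions came from GENCODE M21, which uses the build the processing notes name.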

Additional observations from a re-analysis of the deposited data

How the results depend on the processing

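Across the alternatives, Slc40a1 and Slc11a1 kept their negative direction, and Slc25a37 its positive one. The count of iron genes that passed as lower was 2 of 6. It became 0 of 10 with no filter (3 at an unadjusted p under 0.05) and 0 of 6 after median-of-ratios scaling (3 unadjusted). With haemoglobin genes removed it was 1 of 6. A mean of at least 5 FPKM, a filter that leaves Slc40a1 and Slc11a1 out, gave 0 of 3 (0 unadjusted). Unadjusted counts cover either direction, and after median-of-ratios scaling Slc25a37 (1.70) and Ftl1 (0.94) lay higher with Nar. For other iron genes the count of 8 became 0 of 37 with no filter (12 unadjusted), 3 of 8 with a mean of at least 5 FPKM (116 of all 1083 genes passed as lower there), 2 after median-of-ratios scaling (0.599% of all genes passed as lower) and 4 with haemoglobin genes removed (5.01%). With 1 library left out, the lone library of its group being assumed to vary like the others, these counts ran from 0 to 1 and from 0 to 3, beside 254 of all 5339 genes lower without Nar 1 and 213 without Nar 3; limma called 0 of all 5339 genes without Ctrl 1 (2682 at an unadjusted p under 0.05) and without Ctrl 3 (2133 unadjusted). None of these fits called an iron gene higher.

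The median log2 fold change of the 10 genes, -0.60, moved to -0.22 with a pseudocount of 1, -0.91 with a pseudocount of 0.01, -0.39 without Ctrl 1 and -0.27 with haemoglobin genes removed, and turned to 0.040 after median-of-ratios scaling. Signs also turned for Ftl1 with haemoglobin genes removed (0.33) and after median-of-ratios scaling (0.94), for Fth1 after median-of-ratios scaling (0.54), and for Tfrc with haemoglobin genes removed (0.23), after median-of-ratios scaling (0.74) and among fits with 1 library left out (-0.74 to 0.32). The small log2 ratio differences of 0.21 for Tfr2:Tfrc, 0.02 for Tfrc:Ftl1 and -0.01 for Ireb2:Aco1 changed sign with single libraries left out (-0.32 to 0.74, -0.55 to 0.60 and -0.19 to 0.16), and the last pair also with a pseudocount of 0.01 (0.14), as did Tfrc:Ftl1 (-0.034). The cause of these changes was not tested.

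Same-numbered libraries shared only a number: their deviations from the group means correlated at -0.15 across genes. With the replicate block 2 iron genes and 9 other iron genes passed as lower, and the crossed replicate block, chosen after seeing the data, gave 2 and 11, beside 1802 and 3211 of all 5339 genes. Genes near 0.01 FPKM (Tfr2, Steap3) are limited by rounding and by depth, which is unknown.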

Other observations

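Assembly of iron-sulfur clusters, the other mitochondrial use of imported iron, was measured through 17 genes, all with values and 10 of them tested. In limma 2 passed as lower and 0 as higher, beside 39.6% and 0.187% of all tested genes, and 4 had an unadjusted p under 0.05. After median-of-ratios scaling 0 of 10 passed (5 at an unadjusted p under 0.05), and with no filter 0 of 17 (5 unadjusted). These unadjusted counts cover either direction. The median log2 fold change of the 10 tested genes was -0.47 as deposited, 0.059 with haemoglobin genes removed and 0.64 after median-of-ratios scaling. Isca1, a carrier of newly made clusters, was the most abundant, with 498 and 704 FPKM in Ctrl 1 and 3, against 628 and 584 in Nar 1 and 3, and Iscu, the scaffold on which clusters form, had 74.1, 112, 122 and 95.5 FPKM. Both overlapped between the groups, with log2 fold changes of 0.03 and 0.24 (limma adjusted p = 0.947 and 0.677). Bola3, a late-acting assembly factor, was at 50.9, 78.0, 59.1 and 51.1 FPKM (limma adjusted p = 0.738). The genes that passed were Mms19 (-1.54, limma adjusted p = 0.0264), which delivers clusters to nuclear proteins, and Isca2 (-1.33, limma adjusted p = 0.0353); both entered the test only through their controls (Nar means 0.23 and 0.29 FPKM), and neither passed with any 1 library left out.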
